A study of Arabidopsis thaliana with 12 samples.

Results

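Class III peroxidases are the secreted, haem-containing peroxidases of plants, and 53 of their genes were followed here among the 32846 genes of the deposited expression table. The 53 were taken by their Arabidopsis Genome Initiative (AGI) locus identifiers, and all 53 were found in the table. The list was chosen with earlier results of these data known, so it is no unselected sample of the family. RNA had been sequenced from whole Arabidopsis thaliana seedlings of the Columbia accession, aged 7 to 10 days and kept about 15 to a well in liquid medium. The genotypes were wild type (WT) and the mutant irr, also labelled rrm, of which the groups hold a single line with neither another allele nor a complemented control. Seedlings of each genotype received water or 1 µM AtPep1, a danger peptide that damaged plant cells release and the PEPR receptor kinases perceive, and were harvested after 24 h in constant light. Each of the 4 groups, WT water, WT Pep1, irr water and irr Pep1, held 3 libraries, and the labels call the water libraries untreated.

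Class III peroxidases enter the secretory pathway, and most of them act in the cell wall. With hydrogen peroxide they oxidise phenolic compounds, which joins monolignols into lignin and cross-links wall proteins and polysaccharides, and they can also make reactive oxygen species, which loosen the wall. In Arabidopsis immunity the pair PRXCA [AT3G49110] and PRXCB [AT3G49120] is known for part of the oxidative burst outside the cell, beside the NADPH oxidase RBOHD [AT5G47910], while other members are known for lignin of the Casparian strip and xylem or for the growth of root hairs. The members were ordered by such roles into 23 genes of immunity and wounding, 15 of lignin and the endodermis, and 15 of roots, root hairs and other functions. Each gene was placed in a single group although roles overlap. PRX52 [AT5G05340] and PA2 [AT5G06720], placed under immunity and wounding, are described below by lignin or its monolignols.

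Levels are FPKM (fragments scaled to gene length and library total), as the authors deposited them. The steps between low values gave totals of 17.4 M to 28.6 M reads (M for 1e+06) for 11 libraries and 56.5 M for irr water replicate 3. The design text calls the replicates biological, but the labels do not tie them to separate cultures, so the p-values speak only of the variation among these samples, which may be technical. AT3G23900, the locus known for IRR, did not separate the genotypes, at 10.7, 14.6 and 13.05 FPKM in WT water and 12.8, 11.6 and 11.5 in the libraries labelled irr with water (log2 difference -0.08 ± 0.11, limma adjusted p = 0.715). With Pep1 it stood at 10.7, 12.7 and 11.3 in WT and 11.9, 10.8 and 11.03 in irr. Directions between genotypes therefore rest on the labels. Libraries also stood apart within their groups. Of the 46 peroxidases tested below, irr Pep1 replicate 3 was the lowest of its group in 28 and irr Pep1 replicate 2 the highest in 28. WT water replicate 2 was the lowest of its group in 24. In irr water, replicate 2 was the lowest in 20 but the highest in 19.

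Tests were made by limma on log2(FPKM + 1) over all 12 libraries, with a call at a Benjamini-Hochberg adjusted p under 0.05 over the 18177 genes that reached 1 FPKM in at least 3 libraries. Log2 differences are given ± SE on that scale, which understates changes of low genes, and group levels as mean ± SD with n = 3. Each SE rests on a single residual spread per gene over all groups, so it is not the spread of the groups compared. The median SD of the tested members on the log2 scale was 0.39 in WT water, 0.25 in WT Pep1, 0.33 in irr water and 0.44 in irr Pep1. Of the 53 members, 46 were tested. A further 5 stayed below 1 FPKM in every library and were not expressed by that rule, namely AT1G05240, AT1G05250, AT2G41480, AT3G49960 and AT5G58400. RHS18 [AT5G22410] and AT5G19880 reached 1 FPKM in 1 library each and were not tested. Of the 46 tested, 30 were at 1 FPKM or more in all 12 libraries, and 0 reached that level in a single group only.

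The peroxidases covered a wide range of levels, and a few carried most of the family's transcripts. Summed over the 53 genes, FPKM was 1594, 1504 and 1946 in WT water, 2792, 2978 and 2867 in WT Pep1, 4584, 2266 and 3718 in irr water, and 3417, 6718 and 3184 in irr Pep1. All WT water libraries lay below all others in this sum. The 5 genes with the highest mean over all libraries were AT5G64120, PRXR1 [AT4G21960], AT5G64100, AT4G37520 and AT5G39580. They held 61.2% of the summed group means in WT water, 52.6% in WT Pep1, 74.5% in irr water and 66.1% in irr Pep1. Since whole seedlings were sampled, more cells of a type and more RNA per cell cannot be told apart.

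**Figure D1:**
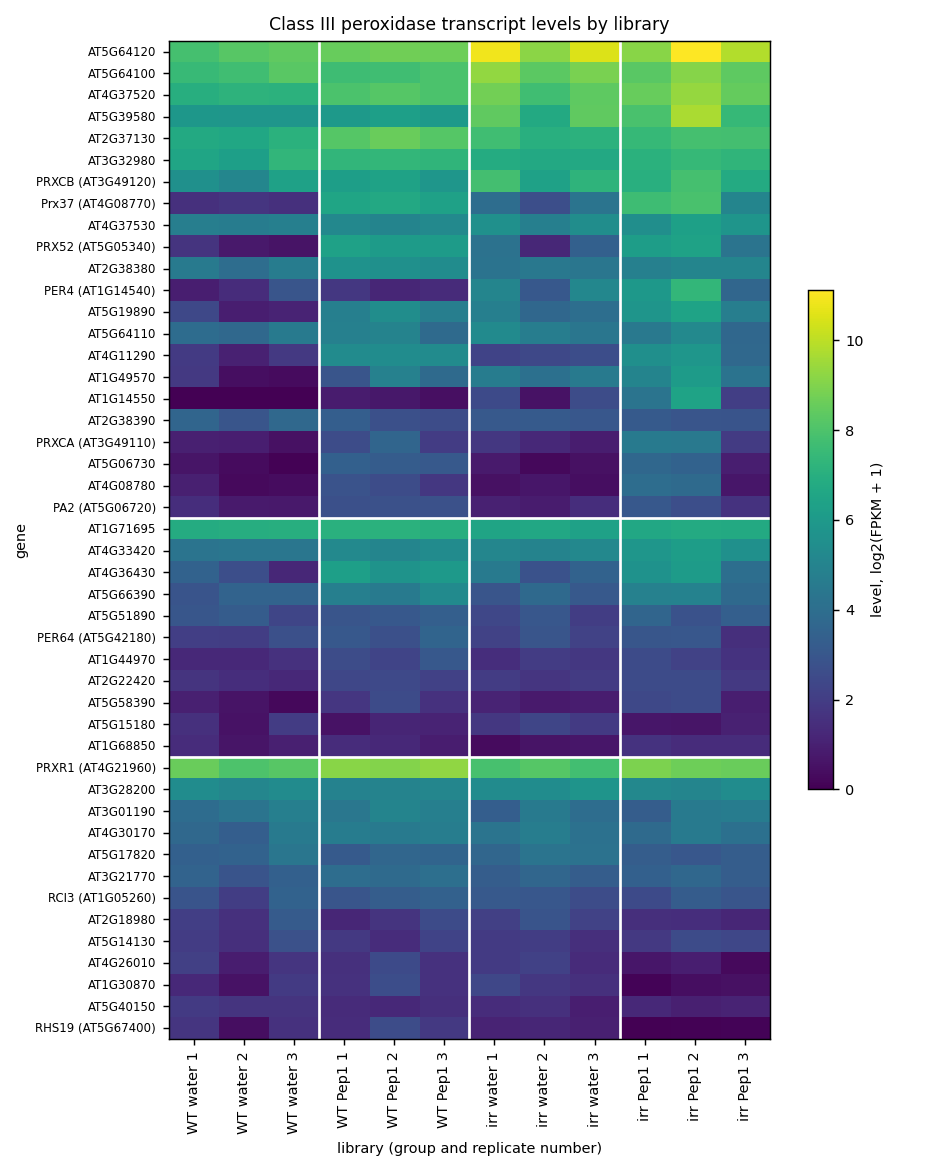
Level of each of the 46 tested class III peroxidases in each library. Rows are genes, with white lines between the immunity and wounding, lignin and endodermis, and root groups and the genes of each ordered by mean level, columns are the 12 libraries by group, and colour gives the level as log2(FPKM + 1). The rows of PRX52 and Prx37 are dark in WT water, at 2.33 FPKM or less, and lighter in WT Pep1, at 68.1 FPKM or more.

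The first comparison asks which peroxidase transcripts changed over 24 h of Pep1 in wild type. Of the 46 tested, 15 rose and 0 fell, against 2.13% of all genes called higher and 1.34% called lower, 3.47% in all. At an unadjusted limma p under 0.05 there were 24 members, and 3797 of all 18177 genes. The median log2 difference of the 46 was 0.69, and that of all 18177 genes was 0.04. In 27 members all Pep1 libraries lay above all water libraries, where 20.8% of all genes did, and in 2 members below, where 12.6% did. By role, 9 of 22 tested immunity and wounding genes rose (median 1.04), as did 5 of 11 tested lignin and endodermis genes (median 0.85) and 1 of 13 tested root genes (median 0.40). Equal library medians moved the split of all genes from 387 higher and 243 lower (61.4% higher) to 310 and 316 (49.5%), and the members' count stayed at 15 higher and 0 lower. Leaving out 1 wild-type library gave fewer calls, except for WT water replicate 3, without which 16 members were called. The count was 7 without WT water replicate 2 or without WT Pep1 replicate 3, and 8 without WT Pep1 replicate 1 or replicate 2. Of the 15 members, 7 were called in all 12 fits that left out a library.

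PRX52 [AT5G05340], known for lignin synthesis in stems, had the largest rise. It stood at 2.20, 0.705 and 0.518 FPKM in WT water and at 81.6, 68.3 and 68.1 in WT Pep1. The lowest Pep1 library was thus far above the highest water library, and the log2 difference was 5.18 ± 0.68 (limma adjusted p = 0.00345). Prx37 [AT4G08770], an enzyme known to limit growth when overproduced, went from 1.95, 2.33 and 1.88 FPKM to 91.8, 105 and 80.7. Its groups were as far apart, with a log2 difference of 4.93 ± 0.61 (limma adjusted p = 0.00287). AT4G11290 was even across the Pep1 libraries, at 39.7, 41.9 and 40.4 FPKM, after 2.73, 1.05 and 2.59 in water. Its rise was 3.79 ± 0.43 (limma adjusted p = 0.00226). All 3 genes kept their calls without any 1 of the 12 libraries.

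AT5G19890 stood at 4.34, 0.935 and 1.14 FPKM in WT water and at 27.1, 42.3 and 25.7 in WT Pep1, with no overlap (3.51 ± 0.47, limma adjusted p = 0.00362). AT1G49570 was more scattered, with 2.60, 0.345 and 0.253 FPKM in water and 6.57, 28.6 and 13.4 with Pep1. Its groups still did not overlap, and it rose by 3.02 ± 0.56 (limma adjusted p = 0.0180), a call lost at 0.0695, 0.0775 and 0.0601 without WT water replicate 2, WT Pep1 replicate 2 and WT Pep1 replicate 3. The adjacent pair PA2 [AT5G06720], which can polymerise monolignols in vitro, and AT5G06730 rose together from low levels. PA2 went from 1.74, 0.749 and 0.680 FPKM to 5.57, 5.74 and 5.81 (1.74 ± 0.32, limma adjusted p = 0.0177), and AT5G06730 from 0.553, 0.248 and 0.0606 to 9.66, 8.44 and 7.63 (2.91 ± 0.55, limma adjusted p = 0.0195). Each of these calls was lost without any of the WT Pep1 libraries or without WT water replicate 2, at adjusted p of up to 0.0723 for PA2 and 0.0772 for AT5G06730, and that of AT5G06730 also without WT water replicate 1, at 0.0685.

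Members with high levels in water changed less on the log2 scale. AT2G37130 went from 107, 96.8 and 137 FPKM to 287, 377 and 293, the most FPKM gained by a called gene of the immunity group, with a log2 difference of 1.49 ± 0.19 (limma adjusted p = 0.00328). AT2G38380 rose from 22.3, 14.6 and 24.4 FPKM to 49.8, 46.5 and 41.3 (1.15 ± 0.16, limma adjusted p = 0.00497). Its neighbour AT2G38390 had 11.4, 6.62 and 12.5 FPKM in water and 8.96, 5.64 and 5.07 with Pep1, and its groups overlapped (-0.55, limma adjusted p = 0.176). The coding sequences of these neighbours are 90.6% identical in the TAIR10.1 reference, so how reads were divided between them is uncertain.

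The burst pair and several abundant immunity genes were not called with Pep1 in wild type. PRXCB stood at 47.1, 33.4 and 80.2 FPKM in water and at 74.3, 83.3 and 56.3 with Pep1, with overlapping groups (0.48, limma adjusted p = 0.522). PRXCA was low, with 0.948, 0.884 and 0.402 FPKM in water and 5.08, 11.2 and 2.90 with Pep1. Its groups did not overlap, and the log2 difference was 1.94 (limma adjusted p = 0.102). AT5G64120, listed in the reference as PRX71 and known for strengthening the wall and limiting cell expansion, had 227, 302 and 337 FPKM in water and 366, 411.5 and 403 with Pep1 (0.46, limma adjusted p = 0.615). AT5G39580 had 57.8, 55.5 and 56.5 FPKM in water and 64.0, 75.6 and 64.3 with Pep1 (0.26, limma adjusted p = 0.822). AT4G37520 went from 124, 145 and 141 FPKM to 249, 287 and 248 (0.93, limma adjusted p = 0.0744). In AT5G64120, AT5G39580 and AT4G37520 every Pep1 library lay above every water library. AT5G64100 overlapped, with 181, 208 and 311 FPKM in water and 204.5, 211 and 247 with Pep1 (-0.04, limma adjusted p = 0.948).

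**Figure D2:**
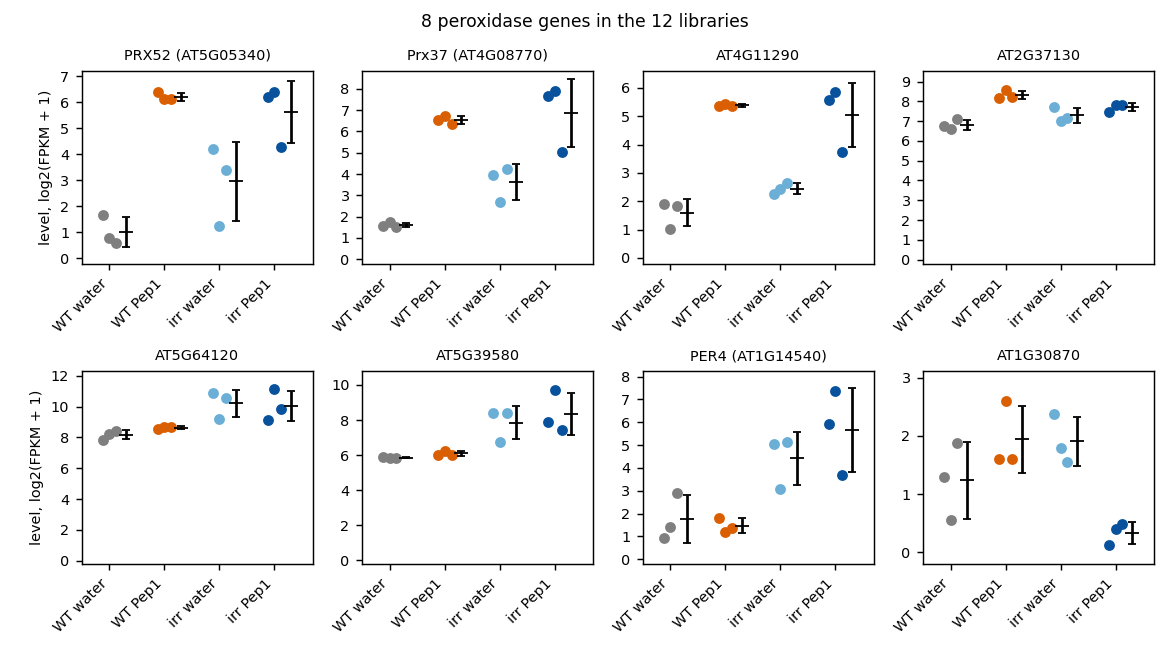
Level as log2(FPKM + 1) on the vertical axes, each panel on its own scale from 0, of 8 class III peroxidases in the 4 groups. Points are the 3 libraries of a group, and the bars beside them give the mean ± SD of the log2 values. PRX52 and Prx37 stood at 0.518 to 2.33 FPKM in WT water and at 68.1 to 105 in WT Pep1, and the irr Pep1 libraries are spread widely in all panels but those of AT2G37130 and AT1G30870.

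Among the lignin and endodermis genes, AT4G36430 had the largest rise in wild type. It stood at 10.3, 5.30 and 1.39 FPKM in water and at 76.0, 50.7 and 61.8 with Pep1, without overlap (3.51 ± 0.62, limma adjusted p = 0.0151). AT5G66390, listed as PRX72 and known for lignin in stems, went from 6.45, 10.5 and 10.6 FPKM to 27.2, 22.0 and 39.3 (1.57 ± 0.33, limma adjusted p = 0.0294). AT4G33420, linked to lignin of xylem vessels, stood at 18.3, 19.5 and 19.5 FPKM in water and 36.9, 32.1 and 39.7 with Pep1 (0.88 ± 0.14, limma adjusted p = 0.00835). AT1G44970 and AT2G22420 rose at low levels, by 1.25 ± 0.25 and 0.85 ± 0.19 (limma adjusted p = 0.0230 and 0.0375). PER64 [AT5G42180], which makes Casparian strip lignin, had 3.22, 3.04 and 5.49 FPKM in water and 7.32, 5.61 and 10.9 with Pep1. Its groups did not overlap but it was not called (0.85, limma adjusted p = 0.237). The calls of AT4G36430, AT5G66390, AT1G44970 and AT2G22420 were each lost without WT water replicate 2, WT Pep1 replicate 1 or WT Pep1 replicate 3, all but that of AT1G44970 without WT Pep1 replicate 2, and all but that of AT4G36430 without WT water replicate 1. That of AT2G22420 was also lost without WT water replicate 3 or irr water replicate 1. The highest limma adjusted p in these fits were 0.0613, 0.125, 0.102 and 0.143 in the order of the genes.

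In the same comparison 16.7% of tested endodermis markers and 14.3% of xylem markers were called higher, against 2.13% of all genes. These lists are short, with 1 call each. The summed FPKM of 7 endodermis markers was 19.2 to 30.3 in WT water and 33.5 to 70.1 in WT Pep1, without overlap. Of 6 tested, 1, MYB36, was called (0.60 ± 0.14, limma adjusted p = 0.0401). The log2 differences of the 6 had a median of 0.83, with 5 above 0 and 1 below. The 7 xylem markers summed to 23.3 to 29.4 FPKM in WT water and 29.3 to 31.9 in WT Pep1, with overlap. Of these, 1 of 7, XCP1, rose (1.23 ± 0.27, limma adjusted p = 0.0316), and their median log2 difference was 0.18. Of the endodermis list, the Casparian strip gene ESB1 was at 0.0717 FPKM or less in wild type. The 6 green leaf markers, of which 0 were called, summed to 43792 to 50170 FPKM in WT water and 28201 to 35759 in WT Pep1. Their part in the peroxidase rises was not tested.

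PRXR1, the root-group gene that rose, was among the most abundant peroxidases in every library. It went from 386, 258 and 298 FPKM in WT water to 572, 527 and 615 in WT Pep1 (0.88 ± 0.16, limma adjusted p = 0.0162), a call lost without WT water replicate 2 or any WT Pep1 library, at adjusted p of up to 0.0659. Of the other tested root genes, AT4G30170 and AT3G21770 had all Pep1 libraries above all water libraries without a call (0.78 and 0.68, limma adjusted p = 0.141 and 0.0582). RCI3 [AT1G05260], known for reactive oxygen under potassium shortage, had 6.39, 3.09 and 10.1 FPKM in water and 6.55, 8.71 and 10.1 with Pep1.

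The same treatment was then followed in the libraries labelled irr. Of the 46 tested members 5 rose and 1 fell, against 0.737% of all genes called higher and 1.25% called lower, 1.99% in all. An unadjusted limma p under 0.05 was reached by 28 members and by 3315 of all 18177 genes. The median log2 difference of the members was 0.48, and that of all genes was -0.00. Groups did not overlap in 13 members with Pep1 higher, where 7.03% of all genes did so, and in 6 with Pep1 lower, where 10.8% did. By role, 2 of 22 immunity genes, 2 of 11 lignin genes and 1 of 13 root genes rose, and 1 root gene fell. The count rested on single libraries more than in wild type. It was 18 without irr Pep1 replicate 3, and 0 without irr Pep1 replicate 1, irr Pep1 replicate 2, irr water replicate 1 or irr water replicate 2, where 25, 20, 28 and 21 members had an unadjusted p under 0.05 by limma. It was 2 without WT Pep1 replicate 1 and 3 without WT Pep1 replicate 3 or irr water replicate 3. None of the 6 calls was kept in all 12 fits that left out a library, and their limma adjusted p rose to as much as 0.206. With equal library medians 5 members were called, and the call of AT1G68850 was lost (limma adjusted p = 0.0523).

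Prx37 stood at 14.7, 5.39 and 18.2 FPKM in irr water and at 200.2, 242 and 32.1 in irr Pep1. The groups did not overlap although replicate 3 was far below the other Pep1 libraries, and the log2 difference was 3.24 ± 0.61 (limma adjusted p = 0.0285). AT4G11290 had the same pattern, with 3.75, 4.38 and 5.20 FPKM in water and 46.05, 56.4 and 12.5 with Pep1 (2.61 ± 0.43, limma adjusted p = 0.0180). AT4G33420 went from 33.0, 30.2 and 36.0 FPKM to 55.5, 71.5 and 47.4 (0.78 ± 0.14, limma adjusted p = 0.0225), and PRXR1 from 233, 289.9 and 217 to 486, 409.9 and 381 (0.79 ± 0.16, limma adjusted p = 0.0350). These 4 were also called with Pep1 in wild type, 4 of the 15 calls there and 4 of the 6 here. AT1G68850, of low level, went from 0.256, 0.506 and 0.571 FPKM to 2.06, 1.69 and 1.65 (0.96 ± 0.21, limma adjusted p = 0.0436).

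Several genes called in wild type were scattered in irr. PRX52 stood at 17.3, 1.39 and 9.58 FPKM in irr water and at 72.4, 83.2 and 18.3 in irr Pep1, and was not called (2.67, limma adjusted p = 0.0698). Its lowest Pep1 library was only just above its highest water library. PA2 and AT5G06730 had log2 differences of 1.35 and 2.18 (limma adjusted p = 0.0548 and 0.0661). In AT5G06730 the Pep1 libraries held 12.2, 10.1 and 0.913 FPKM, with replicate 3 near the water libraries, at 0.7604, 0.198 and 0.420. AT2G37130 had 208, 129.6 and 139.9 FPKM in irr water and 175, 225 and 222 in irr Pep1, with overlap (0.40, limma adjusted p = 0.293).

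**Figure D3:**
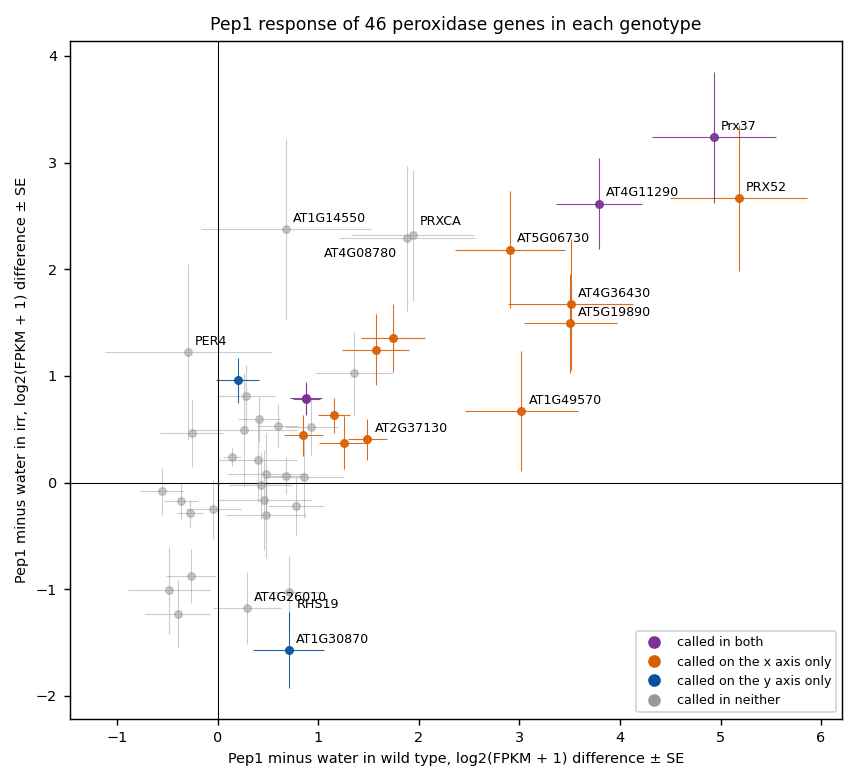
Log2 difference between Pep1 and water in wild type (horizontal axis) and in irr (vertical axis) for each of the 46 tested peroxidases, both on the log2(FPKM + 1) scale, with error bars for the SE and colour for the comparisons in which a gene was called. PRX52 stands at 5.18 in wild type and 2.67 in irr, and AT1G30870 at 0.70 and -1.57.

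Whether Pep1 acted differently on the peroxidases in the genotypes was tested by the interaction of genotype and treatment. By limma 0 of 46 members and 0 of 18177 genes (0.0%) were called, with 12 members and 1219 genes at an unadjusted p under 0.05. The smallest p values among members belonged to AT1G30870 (-2.27 ± 0.50, limma adjusted p = 0.364), AT2G37130 (-1.08 ± 0.27, 0.455) and RHS19 [AT5G67400] (-1.73 ± 0.48, 0.509). No difference of the Pep1 effect between genotypes was thus detected for any peroxidase, and the median interaction of the 46 was -0.41 against -0.04 for all genes.

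Several root-group genes were at their lowest in the libraries labelled irr with Pep1. AT1G30870 stood at 4.18, 2.49 and 1.93 FPKM in irr water and at 0.0898, 0.319 and 0.402 in irr Pep1, and it fell by 1.57 ± 0.35 on the log2 scale (limma adjusted p = 0.0471). RHS19, named for root hair specific expression and known, with AT4G26010, for root hair growth, had 1.17, 1.28 and 0.945 FPKM in irr water and 0, 0.0463 and 0.0908 in irr Pep1. Its groups did not overlap, and it was not called for Pep1 in irr (-1.03, limma adjusted p = 0.143). AT4G26010 had 2.68, 3.43 and 1.61 FPKM in irr water and 0.580, 0.906 and 0.222 in irr Pep1 (-1.18, limma adjusted p = 0.0975). In WT Pep1 these genes were not low, at 2.04, 5.11 and 2.04 FPKM for AT1G30870, 1.69, 5.06 and 2.54 for RHS19, and 1.92, 4.57 and 1.98 for AT4G26010. RHS18, below the filter, was listed at 0 in all 3 irr Pep1 libraries and at 0.125 to 1.04 in the other 9.

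The sum of root hair markers was lowest in the same group, but its genes differed. The summed FPKM of 6 root hair markers was 2.101 to 6.91 in WT water, 6.70 to 16.1 in WT Pep1, 7.82 to 11.8 in irr water and 0.659 to 1.61 in irr Pep1. Of these 6 markers 2 passed the filter, EXPA7 and RHS13, and both fell with Pep1 in irr (-1.83 ± 0.36 and -1.997 ± 0.32, limma adjusted p = 0.0312 and 0.0176). Among those below the filter, EXPA18, SHV2 and RHD6 were lower in every irr Pep1 library than in every irr water library. RSH3 overlapped between these groups, and RHD6, at 0.397, 0.0807 and 0.553 FPKM in irr Pep1, overlapped both wild-type groups. The part of root hair cells in the falls of the peroxidases was not tested.

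The next comparison set the libraries labelled irr against wild type in water. Of the 46 members 5 were higher and 1 lower in irr, against 2.96% and 0.963% of all genes, 3.92% in all. An unadjusted limma p under 0.05 was reached by 17 members and by 3976 of all 18177 genes. The median log2 difference was 0.35 for the members and 0.03 for all genes. In 13 members all irr libraries were above all wild-type libraries, where 17.7% of all genes were, and in 2 below, where 10.4% were. Equal library medians moved the split of all genes from 538 higher and 175 lower (75.5% higher) to 447 and 294 (60.3%), while the members stayed at 5 and 1. All calls but 2 were in immunity and wounding genes, where 4 of 22 were higher (median 0.93), against 1 higher and 1 lower of 11 lignin genes and 0 of 13 root genes. Leaving out irr water replicate 2 raised the members called to 13, and leaving out irr Pep1 replicate 2 or 3 gave 11. The count was 0 without WT water replicate 2 or without irr water replicate 3, where 16 and 13 members had an unadjusted p under 0.05 by limma. It was 1 without irr water replicate 1, 2 without WT water replicate 1, and 3 without any of the WT Pep1 libraries. All 6 calls were lost in at least 1 of these fits, at limma adjusted p of up to 0.147. The 6 green leaf markers, of which 0 were called here, summed to 32656 to 39030 FPKM in irr water and 43792 to 50170 in WT water, without overlap. Their part in the peroxidase differences was not tested.

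AT1G49570 was the member most raised in irr water. It stood at 24.5, 16.1 and 22.9 FPKM, all above its 2.60, 0.345 and 0.253 in WT water (3.58 ± 0.56, limma adjusted p = 0.0132), and its call was kept in 10 of the 12 fits that left out a library, the exceptions being WT water replicate 2 and irr water replicate 3. AT5G19890 had 26.8, 12.1 and 15.1 FPKM in irr against 4.34, 0.935 and 1.14 in WT water (2.68 ± 0.47, limma adjusted p = 0.0173). AT5G64120, the most abundant peroxidase, had 1886, 579 and 1483 FPKM in irr against 227, 302 and 337 in WT water (2.04 ± 0.47, limma adjusted p = 0.0377). In each of these genes irr water replicate 2 was the lowest of the irr libraries and still above wild type. AT4G37520 was higher at 431, 206 and 329 FPKM against 124, 145 and 141 (1.17 ± 0.26, limma adjusted p = 0.0345), and AT4G33420 at 33.0, 30.2 and 36.0 against 18.3, 19.5 and 19.5 (0.76 ± 0.14, limma adjusted p = 0.0196). AT1G71695 was lower, at 88.2, 101 and 81.2 FPKM against 112, 120.5 and 124 (-0.40 ± 0.09, limma adjusted p = 0.0359).

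Further immunity genes were higher in every irr water library but missed the threshold. AT5G39580 stood at 337, 107 and 341 FPKM against 57.8, 55.5 and 56.5 in wild type (2.01, limma adjusted p = 0.0559). PRXCB stood at 221, 81.3 and 149.5 FPKM against 47.1, 33.4 and 80.2 (1.45, limma adjusted p = 0.0597). The lowest irr library of PRXCB was only just above its highest wild-type library. AT5G64100 had 634, 321 and 475 FPKM against 181, 208 and 311 (1.01, limma adjusted p = 0.0644). PER4 [AT1G14540] had 32.3, 7.46 and 34.4 FPKM against 0.918, 1.70 and 6.58 (2.66, limma adjusted p = 0.0894).

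With Pep1 in both genotypes, 2 members were higher and 2 lower in irr, against 1.17% and 0.363% of all genes, 1.53% in all. An unadjusted limma p under 0.05 was reached by 18 members and by 3210 of all 18177 genes. The median log2 difference was -0.12 for the members and -0.03 for all genes. All irr libraries lay above all wild-type libraries in 9 members, where 10.4% of all genes did, and below in 9, where 12.8% did. The count was 8 without irr Pep1 replicate 3, and 1 without WT Pep1 replicate 1, WT water replicate 1 or irr water replicate 1. It was 0 without WT Pep1 replicate 2, WT Pep1 replicate 3, irr Pep1 replicate 1 or irr Pep1 replicate 2, where 19, 14, 18 and 14 members had an unadjusted p under 0.05 by limma. All 4 calls were lost in at least 1 of these fits, at limma adjusted p of up to 0.168. Equal library medians gave 6 members called, with AT5G39580 and AT1G14550 added as higher in irr (limma adjusted p = 0.0476 and 0.0486). Calls among all genes then went from 278 to 389. PER4 had the largest difference, at 59.2, 163 and 11.9 FPKM in irr against 2.54, 1.30 and 1.60 in wild type (4.19 ± 0.83, limma adjusted p = 0.0347). AT4G33420 was higher at 55.5, 71.5 and 47.4 FPKM against 36.9, 32.1 and 39.7 (0.65 ± 0.14, limma adjusted p = 0.0406). RHS19 and AT1G30870 were lower (-1.89 ± 0.34 and -1.60 ± 0.35, limma adjusted p = 0.0233 and 0.0486), and neither overlapped between genotypes. The root hair marker RHS13 was lower as well (-2.42, limma adjusted p = 0.00765).

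AT4G33420 was the member called in all 4 comparisons of 2 groups, which share samples with each other. AT1G14550, the neighbour of PER4, was listed at 0 in all WT water libraries. It had 0.824, 0.654 and 0.356 FPKM in WT Pep1, 4.59, 0.475 and 4.95 in irr water and 18.2, 85.2 and 3.15 in irr Pep1. The lowest irr Pep1 library was above the highest WT Pep1 library, with a log2 difference of 3.57 that was not called (limma adjusted p = 0.0584). With equal library medians it was called (limma adjusted p = 0.0486).

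**Figure D4:**
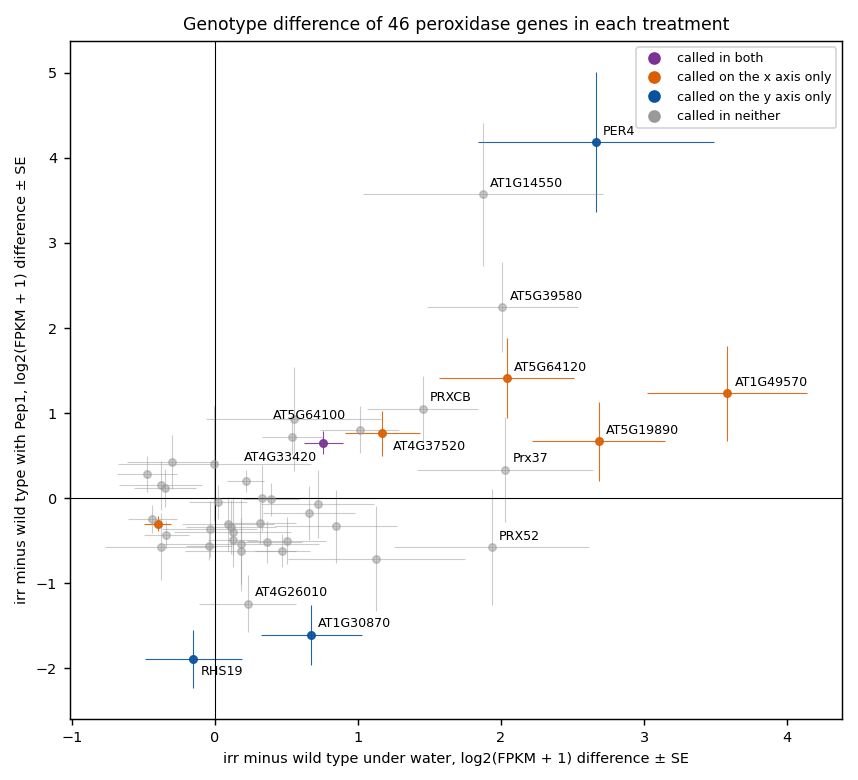
Log2 difference between irr and wild type in water (horizontal axis) and with Pep1 (vertical axis) for each of the 46 tested peroxidases, both on the log2(FPKM + 1) scale, with error bars for the SE and colour for the comparisons in which a gene was called. AT1G49570 stands at 3.58 in water and 1.23 with Pep1, PER4 at 2.66 and 4.19, and RHS19 at -0.15 and -1.89.

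Many members lie beside a close copy, and the copies often had unlike levels. Prx37 and AT4G08780 are adjacent, and their coding sequences are 93.8% identical in the TAIR10.1 reference. Prx37 was nevertheless the higher in every library, with means of 92.6 ± 12.2 FPKM in WT Pep1 and 158 ± 111 in irr Pep1, against 4.55 ± 1.85 and 9.46 ± 7.72 for AT4G08780. AT4G08780 was not called with Pep1 in either genotype (1.88 and 2.29, limma adjusted p = 0.143 and 0.105). PRXCA and PRXCB, at 90.4% identity and with 1 coding gene between them, differed likewise, at 0.745 ± 0.298 and 53.6 ± 24.1 FPKM in WT water.

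AT4G37520 and AT4G37530, at 92.4% identity, had means of 137 ± 10.9 and 25.7 ± 1.43 FPKM in WT water and 322 ± 113 and 38.9 ± 10.4 in irr water. Only AT4G37520 of the pair was called in irr water, and the difference between the neighbours was not tested (AT4G37530 0.54, limma adjusted p = 0.159). The cluster of AT5G64100, AT5G64110 and AT5G64120 shares 59.8% to 67.6% identity, and its middle gene AT5G64110 had the lowest level, at 27.9 ± 10.1 FPKM in irr water against 477 ± 157 and 1316 ± 670. PER4 and AT1G14550, at 72.3%, had means of 78.2 ± 77.6 and 35.5 ± 43.7 FPKM in irr Pep1, each carried by replicate 2. AT1G05240 and AT1G05250 are 100% identical in coding sequence, so reads within it cannot be assigned between them. Both were listed near 0 in every library. How the authors' counting divided reads between close copies is not given in the sources used here.

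**Figure D5:**
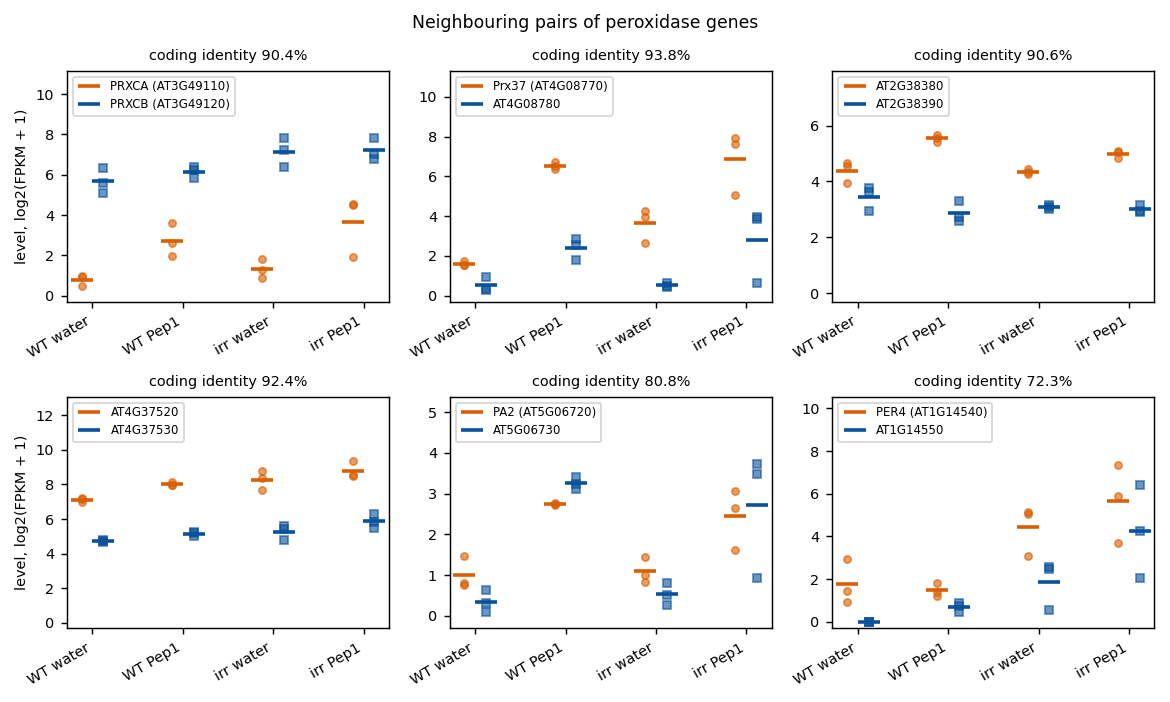
Level as log2(FPKM + 1) on the vertical axes, each panel on its own scale from 0, of both genes of 6 neighbouring pairs of class III peroxidases in the 4 groups. Points (circles and squares for the genes of a pair) are libraries and lines are means of the log2 values, with the identity of the coding sequences above each panel. Prx37 and AT4G08780 lay apart in WT Pep1, at 80.7 to 105 and 2.54 to 6.16 FPKM, and so did PRXCB and PRXCA in WT water, at 33.4 to 80.2 and 0.402 to 0.948 FPKM.

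Genes that make or remove the substrates of peroxidases were followed from 2 lists. Of 10 NADPH oxidase genes, which make superoxide outside the cell, 6 were tested. RBOHB [AT1G09090] rose with Pep1 in wild type, from 0.722, 0.474 and 0.649 FPKM to 3.34, 3.28 and 3.75 (1.47 ± 0.17, limma adjusted p = 0.00226), and in irr (0.95 ± 0.17, 0.0225). RBOHA [AT5G07390] was higher in irr with Pep1 (1.31 ± 0.24, limma adjusted p = 0.0244). RBOHD, the oxidase of the immune burst, was at 5.57, 5.62 and 5.23 FPKM in WT water and 12.3, 11.8 and 10.8 in WT Pep1, without overlap or a call (0.96, limma adjusted p = 0.149). Of 18 genes that remove hydrogen peroxide and superoxide, 16 were tested, and CAT3 [AT1G20620], a catalase, rose with Pep1 in wild type (0.78 ± 0.12, limma adjusted p = 0.00747) while GPX2 [AT2G31570] was higher in irr water (0.42 ± 0.10, 0.0422).

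The other 20 genes of the family were mostly silent, and 5 of them passed the filter. Of those, AT3G03670 was higher in irr, at 11.2, 11.4 and 17.6 FPKM in irr water against 0.865, 1.03 and 2.16 in WT water (2.62 ± 0.42, limma adjusted p = 0.0140). With Pep1 it held 33.7, 39.7 and 11.2 FPKM in irr against 1.28, 3.55 and 1.57 in wild type (3.11 ± 0.42, limma adjusted p = 0.00769). The irr and wild-type libraries did not overlap under either treatment, and none of the 20 was called for Pep1 in wild type or in irr.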

How the data were processed

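RNA from 12 seedling libraries had been sequenced as paired ends, and the authors deposited FPKM values in 1 table with 1 column per library. The sources used here do not give aligner, counting, genome build or annotation, so no coordinates or sequences are printed. Other samples' columns numbered 0. For each member, gene lengths of up to 4000 bases were searched for one that makes the reads behind the FPKM whole, within 0.05 of a read. Such a length was found in 52 of 53 members, and the other is at 0 throughout. It was that of the reference in 1 member, so wholeness was fitted and is no check of the reads. The reads set counting error only.

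Values were taken as log2(FPKM + 1) and modelled with limma 3.58.1 (R 4.3.3) on group means, a mean-variance trend, 8 residual degrees of freedom and two-sided tests. Genes needed 1 FPKM in at least 3 libraries. The fit was also run on simulated data with independent noise and a single spread per gene. The spread of these groups differed, so that run checks the code only. Names and coding identities come from the TAIR10.1 reference (Biopython 1.88). The members, roles and lists were chosen with earlier results of these data known. The genes named were, in each comparison of 2 groups, up to 8 rises and 8 falls of largest change among called members, the 3 smallest interaction p values, the 5 highest means, partners in close pairs, PRXCA and PRXCB, and, from the lists of other genes, up to 3 called. Others were named outside these rules, with their values seen. They were the members PER64, RCI3, AT4G26010, RHS18, AT4G30170, AT3G21770, AT5G66390, AT1G44970, AT2G38380, AT2G38390 and AT2G22420. From the lists of other genes they were RBOHD, EXPA18, SHV2, RHD6, RSH3 and ESB1. The alternatives were pseudocounts of 0.1 and 5, other filters, equal library medians, library quality weights, a replicate block, fits restricted to the groups in question, and each library left out.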

Additional observations from a re-analysis of the deposited data

How the results depend on the processing

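Direction held for every called peroxidase under all alternatives run, but the number called often did not. With Pep1 in wild type, 7 to 19 members were called when 1 library was left out, and all other settings stayed within 1.5 times of the 15. With Pep1 in irr the count of 6 ran from 0 to 18 with 1 library left out, and was 14 with library quality weights, 2 with no expression filter and 0 in a fit of only the groups compared (20 at an unadjusted p under 0.05 by limma). For irr in water the count of 6 ran from 0 to 13 with 1 library left out and was 3 with no filter. For irr with Pep1 the count of 4 ran from 0 to 8 with 1 library left out, and was 11 with weights, 2 with a mean of at least 5 FPKM, 1 with a pseudocount of 5, and 0 with no filter or only the groups compared, where 19 and 18 members had an unadjusted p under 0.05 by limma. Leaving out irr water replicate 2 and irr Pep1 replicate 3 together, an alternative chosen after seeing the data and for their values, gave 12, 15 and 12 calls in these 3 comparisons, which supports nothing. The interaction gave 0 calls under every setting. No pairing by replicate number was seen. Deviations of same-numbered libraries correlated at -0.52 to 0.19 over 18 pairs, and 2 of 12 libraries correlated best with their own number. With so few libraries in a group, shifts of whole libraries could hide a pairing, so this check cannot exclude one. With the replicate block 16, 2, 4 and 0 members were called for Pep1 in wild type, Pep1 in irr, irr in water and irr with Pep1, the last with 18 at an unadjusted p under 0.05 by limma. The cause of these changes was not tested. Depth sets counting error only, and low genes such as RHS19, at 0 to 0.0908 FPKM in irr Pep1, rest on few reads.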
